A study of Saccharomyces cerevisiae with 2 samples.

Results

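This report describes 10 genes by which haploid S. cerevisiae cells of mating type a make and answer mating signals, in 1 library of BY4741 wild type (WT) and 1 library of its cdc55Δ derivative. The members, chosen with earlier results of these data known, were taken by name from the mRNA rows of the deposited count table. All 10 were found among 5995 mRNA rows. They are 6 a-specific genes (MFA1, MFA2, STE2, STE6, BAR1 and AGA2) and 4 genes that pheromone induces or that damp its signal (AGA1, FUS1, SST2 and AFR1). BY4741 is a haploid a-type laboratory strain with deletions in HIS3, LEU2, URA3 and MET17, which both libraries share, and cdc55Δ cells also lack Cdc55p, a regulatory subunit of protein phosphatase 2A. Both strains were harvested 6 h after inoculation into YPD20, a rich medium with 20% glucose, in which they stood unshaken at 30 °C. The number of cdc55Δ clones used is not given in the sources used here. No pheromone treatment is named in the labels or the study's methods. The comparison asks how the loss of Cdc55p bears on gene expression early in alcoholic fermentation.

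In yeast, a cells secrete the lipidated peptide a-factor and carry a receptor for the α-factor of the opposite type. Bound receptor frees a G protein that starts a MAP kinase cascade, and the kinase releases the transcription factor Ste12p onto pheromone response elements upstream of mating genes. The a-specific genes are switched on by the factor Mcm1p, and in α cells the α2 repressor sits beside Mcm1p on the same operator and shuts them off. Even without a partner a cells express these genes at a basal level, and desensitizing proteins hold the pathway down.

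The library labels were checked first. CDC55 reads numbered 2614 in WT but 1 in the deletion library, which puts it at least 775-fold lower against a floor of 3 counts in that library. The counts summed to 33233285 in WT and 30133454 in cdc55Δ over 6420 features. LEU2, URA3 and MET17 had at most 2 counts in either library, and HIS3, of which BY4741 keeps a part, had 1624 and 1275. The α-specific genes were far below the a-specific ones. Their levels in WT ran from 0.906 RPKM for MF(ALPHA)1, which encodes α-factor, to 8.96 RPKM for AFB1, an α-cell secreted protein that acts against a-factor, whereas those of the a-specific members ran from 90.4 to 1308 RPKM. RPKM, as deposited, is the count divided by the listed length and by the total counts of the library. For MFA1 and MFA2 the listed length, 111 and 117 bases, runs from start codon to stop codon only. The α cassette genes MATALPHA1, MATALPHA2, HMLALPHA1 and HMLALPHA2 had at most 7 counts each. HMRA1, the silent copy of the a1 repressor gene, had 1325 counts in WT and 909 in cdc55Δ. The reference genome holds α genes at MAT, so reads of the active a1 gene of an a cell can be placed only on HMRA1.

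The sequence upstream of the genes was compared between the 2 groups. The operator of a-specific genes was searched on both strands as CATGTA, the α2 half-site, followed after 4 or 5 bases by CCNNNNNNGG, the core of the Mcm1p box. This spelling was chosen after the members' upstream sequences had been read. All 6 a-specific members hold a match in the 500 bases before the start codon, and none of AGA1, FUS1, SST2 and AFR1 does. Since the spelling was chosen with these sequences in view, the matches in all 6 are no independent result. Of 6000 nuclear protein-coding genes with such a window, 14 hold a match (0.233%), and besides the 6 members they include ASG7, a further a-specific gene. CATGTA alone was found in 1117 of the 6000 (18.6%), with all 6 a-specific members and 2 of the other 4 among them. The other genes with an operator match are GYP8, RPL4B, RPL42A, MOG1, NGL1, NTG2 and YHR054C, none of them in the lists used here. The matches are shown because they are what the a-specific members share, with 1 match per gene, the half-site and the fixed bases of the box in capitals, and coordinates of the R64 assembly of S288C:
MFA1 (chrIV:1384943-1384972, minus strand): CATGTAaatttCCtttttgGGtaattacac
MFA2 (chrXIV:352163-352192, plus strand): CATGTAtttaCCtattcgGGaaatttacat
STE2 (chrVI:82351-82380, plus strand): CATGTAaatttCCtaattgGGtaagtacat
STE6 (chrXI:46478-46507, minus strand): CATGTAattaCCtaatagGGaaatttacac
BAR1 (chrIX:322078-322107, plus strand): CATGTAattaCCgtaaaaGGaaattacatg
AGA2 (chrVII:437102-437131, minus strand): CATGTAatttCCgaatacGGtaattacacg

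In MFA2, STE2 and BAR1 the site reads as a match from either strand, since a second half-site flanks the box, and those second matches overlap the ones printed. The matches lay between positions -298 and -193 from the start codon. They describe the members' sequence and are no measurement of binding.

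The pheromone response element, searched as TGAAACA on both strands, was found in the same window of all 10 members and of 721 of the 6000 genes (12%). It is printed for the 4 members without an operator, in capitals with its flanks:
AGA1 (chrXIV:703486-703515, plus strand): acataattttcTGAAACAatattaaaacat
FUS1, upstream copy (chrIII:71605-71634, plus strand): tggtgcgatgaTGAAACAaacatgaaacgt
FUS1, copy nearer the gene (chrIII:71632-71661, plus strand): cgtctgtaattTGAAACAaataacgtaatt
SST2 (chrXII:1041593-1041622, minus strand): atattcaatttTGAAACAatgatcccaata
AFR1 (chrIV:616514-616543, minus strand): taccactgataTGAAACAagtacgatccct

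AFR1 alone among the 10 members also holds AGGGG, the core of the stress response element that Msn2p and Msn4p bind, at positions -60 to -56 from its start codon. That short core was found upstream of 2044 of the 6000 genes (34.1%), so its presence sets AFR1 apart from the other members and not from yeast genes at large.

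**Figure D1:**
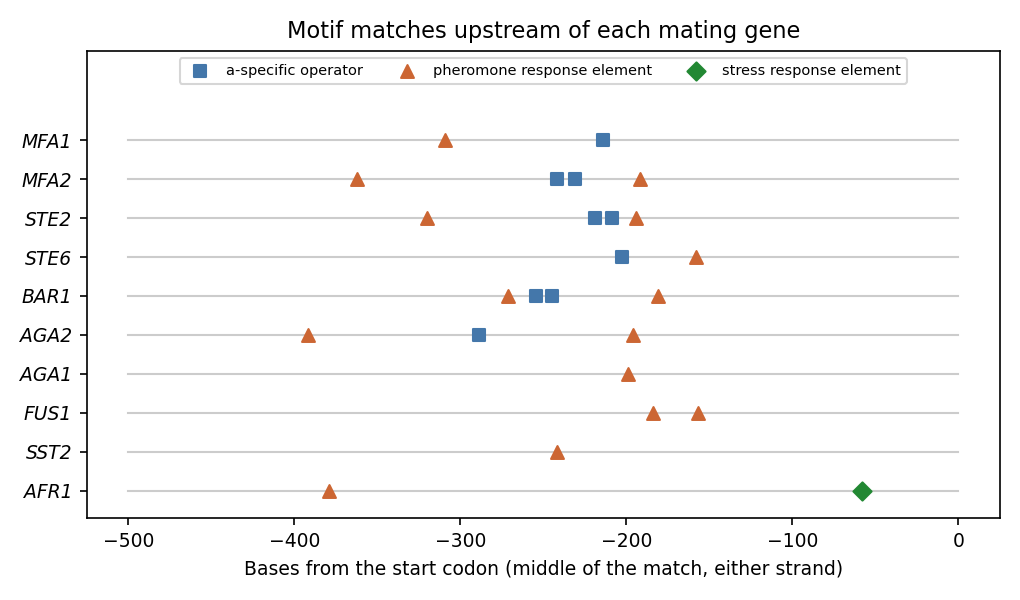
Motif matches on either strand in the 500 bases before the start codon of each member, with the position in bases on the x axis (0 is the start codon). Squares mark the a-specific operator, which all 6 a-specific genes and none of the other 4 hold, triangles the pheromone response element, found in all 10, and the diamond the stress response element core of AFR1.

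Among the members 9 had lower normalized counts in cdc55Δ and 1, AFR1, had higher ones. Of the 5705 features above the count minimum given below, 49.6% were lower. The values below are counts, then the log2 fold change of cdc55Δ over WT after scaling with TMM, a method that sets library size by the bulk of the features, with 0.5 added to each normalized count. The interval after each is a 95% Clopper-Pearson interval of the reads' split between the libraries. It covers counting error only, with each read taken as independent, so PCR copies can make it too narrow. With 1 culture per strain the spread between cultures was not measured, no difference has a replicate check and no p-value is given. In such bulk libraries fewer cells that express a gene and less RNA per cell cannot be told apart. All 10 members passed the minimum of 50 mean normalized counts, as did 5705 features in all, called tested features here although no test was run, and each member's interval excluded 0. Such intervals lay below 0 in 28.4% of tested features and above 0 in 31.5%, so at this depth a small shift clears counting error in many genes. Among the members 1 was at least 2-fold lower (1.03% of tested features) and 1 at least 2-fold higher (1.91%). At a threshold of 1.5-fold, 4 members were lower (2.96% of tested features) and 1 higher (5.17%).

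Both a-factor genes had fewer counts in cdc55Δ, and the interval of MFA1 lay below those of all other members. MFA1 (YDR461W, chromosome IV from 1385176 to 1385286, plus strand), which encodes an a-factor precursor, had 1549 counts in WT and 545 in cdc55Δ. Its log2 fold change was -1.34 (-1.48 to -1.20), 2.53-fold lower in cdc55Δ, and it held rank 33 from the lowest of 5705 tested features. MFA2 (YNL145W, chromosome XIV from 352414 to 352530, plus strand), which encodes a precursor of a nearly identical pheromone, had 5085 counts in WT and 2499 in cdc55Δ. Its log2 fold change was -0.86 (-0.93 to -0.79), rank 79 from the lowest. The interval of MFA2 overlapped those of AGA2 and AGA1, described further on, so these cannot be ranked. The intervals of MFA1 and MFA2 did not overlap, so the difference between these libraries was larger for MFA1 than for MFA2 beyond counting error. In WT the MFA2 level was 3.11 times that of MFA1 per length (2.94 to 3.30), and in cdc55Δ it was 4.35 times (3.96 to 4.78).

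Both are short genes for related peptides, so their coding sequences are printed to show that reads can tell them apart. The longest stretch they share is 11 bases long, given in capitals, and aligned at their ends they are identical at 70 of 111 bases (63.1%):
MFA1: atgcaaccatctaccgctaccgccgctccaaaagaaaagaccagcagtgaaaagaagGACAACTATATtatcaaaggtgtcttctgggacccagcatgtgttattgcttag
MFA2: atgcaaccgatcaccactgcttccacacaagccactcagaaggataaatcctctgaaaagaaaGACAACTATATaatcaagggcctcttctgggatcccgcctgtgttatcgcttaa

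None of the 100-base stretches of any member occurs elsewhere in the genome, and no annotated gene overlaps a member. HBN1, on the opposite strand, ends 63 bases from the end of FUS1. MFA1, MFA2 and AGA2 are the shortest members, at 111, 117 and 264 bases, and were also the lowest of the a-specific genes relative to WT. Over the 216 tested mRNAs of at most 300 bases the median log2 fold change was 0.04, with 10 at least 1.5-fold lower and 20 at least 1.5-fold higher. Over the 17 tested mRNAs of at most 120 bases, MFA1 and MFA2 included, the median was -0.19, with 4 at least 1.5-fold lower and 1 at least 1.5-fold higher. Among all tested features 2.96% were at least 1.5-fold lower and 5.17% at least 1.5-fold higher. With the trend of log2 fold change with gene length removed, MFA1 and MFA2 stood at -1.22 and -0.75.

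The receptor, the exporter and the protease that surround these peptides were lower by less. STE2 (YFL026W, chromosome VI from 82580 to 83875, plus strand), the receptor for α-factor, had 24905 counts in WT against 16145 in cdc55Δ, for a log2 fold change of -0.46 (-0.49 to -0.43). STE6 (YKL209C, chromosome XI from 42423 to 46295, minus strand), the ATP-driven pump that exports a-factor, had 28311 and 20926 counts, a log2 fold change of -0.27 (-0.29 to -0.24). BAR1 (YIL015W, chromosome IX from 322342 to 324105, plus strand), a secreted protease that destroys α-factor, had 17209 and 12958 counts, a log2 fold change of -0.24 (-0.27 to -0.21). The intervals of STE6 and BAR1 overlapped, so these genes cannot be ranked, whereas the interval of STE2 lay below both. None of these genes reached 1.5-fold.

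The subunits of a-agglutinin, the adhesin by which a cells stick to α cells, had similar ratios from very different levels. AGA2 (YGL032C, chromosome VII from 436570 to 436833, minus strand), the a-specific binding subunit, had 793 counts in WT against 433 in cdc55Δ, for a log2 fold change of -0.70 (-0.88 to -0.53). AGA1 (YNR044W, chromosome XIV from 703699 to 705876, plus strand), the anchor subunit, which haploids of both types can make, had 371 and 217 counts, a log2 fold change of -0.60 (-0.85 to -0.36). Per length AGA2 stood 17.6 times above AGA1 in WT (15.6 to 20.002) and 16.5 times in cdc55Δ (14.0 to 19.5). The intervals of these ratios overlap, so a shift between the subunits was not detectable at this depth.

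**Figure D2:**
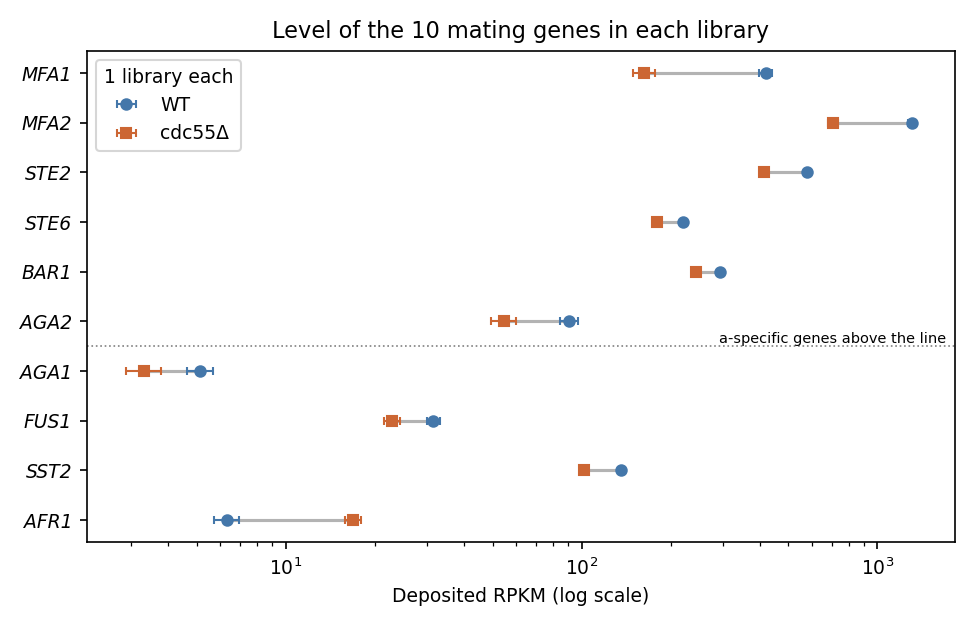
Deposited RPKM of each member (log x axis) in the WT library (circles) and the cdc55Δ library (squares), with exact 95% Poisson intervals of the counts, and the a-specific genes above the dotted line. MFA2 has the highest level in both libraries (1308 and 709 RPKM), and AFR1 is the only member whose square lies to the right of its circle.

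FUS1, SST2 and AFR1, whose transcription pheromone raises, divided into lower and higher. FUS1 (YCL027W, chromosome III from 71803 to 73341, plus strand), a membrane protein of cell fusion and a standard reporter of the pathway, had 1612 counts in WT against 1061 in cdc55Δ, for a log2 fold change of -0.43 (-0.55 to -0.32). SST2 (YLR452C, chromosome XII from 1039270 to 1041366, minus strand), which speeds GTP hydrolysis by the Gα protein and so desensitizes the cell, had 9489 and 6456 counts, a log2 fold change of -0.39 (-0.43 to -0.34). Per length SST2 stood 4.32 times above FUS1 in WT (4.10 to 4.56) and 4.47 times in cdc55Δ (4.18 to 4.77). These intervals overlap as well, so FUS1 and SST2 could not be told apart in their ratio to WT.

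AFR1 (YDR085C, chromosome IV from 614288 to 616150, minus strand), which acts with the α-factor receptor in desensitization and in shaping the mating projection, had 390 counts in WT and 946 in cdc55Δ. Its log2 fold change was 1.45 (1.27 to 1.62), 2.72-fold higher in cdc55Δ, and it held rank 46 from the highest of 5705 tested features. The ratio of FUS1 to AFR1 per length was 5.004 in WT (4.48 to 5.60) and 1.36 in cdc55Δ (1.24 to 1.48). AFR1 and AGA1 had neighbouring levels in WT, 6.30 and 5.13 RPKM, and in cdc55Δ AFR1 stood 5.10 times above AGA1 (4.39 to 5.93). Of the proteins that damp the response, then, BAR1 and SST2 had lower counts in cdc55Δ and AFR1 higher.

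**Figure D3:**
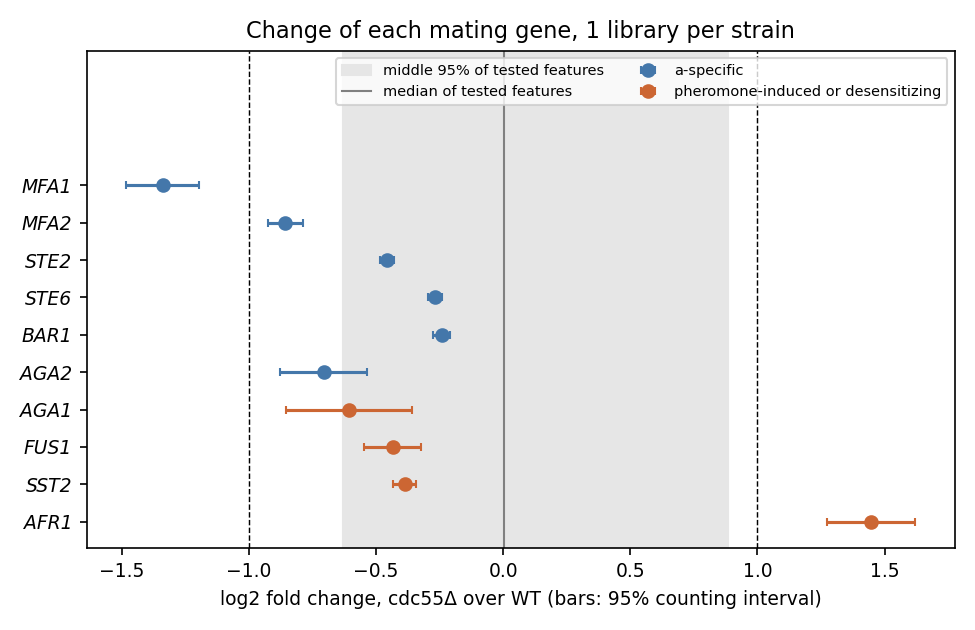
Log2 fold change of cdc55Δ over WT for each member, with 95% counting intervals, 1 library per strain, dashed lines at 2-fold and the middle 95% of tested features (-0.63 to 0.89) in grey. MFA1, MFA2 and AGA2 lie left of the grey range and AFR1 right of it.

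By group, the 6 a-specific genes ranged in log2 fold change from -1.34 to -0.24 around a median of -0.58, and all 6 were lower. The 4 pheromone-induced or desensitizing genes ranged from -0.60 to 1.45 around a median of -0.41, with 3 lower. The medians differ by -0.17 (a-specific minus the others). Over all tested features the median was 0.00 and 49.6% were lower. AGA1, FUS1 and SST2 lay within the range of the a-specific genes, so the groups overlapped except for AFR1.

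The order of the members' levels differed between the libraries in the place of MFA1. In WT the order by RPKM was MFA2, STE2, MFA1, BAR1, STE6, SST2, AGA2, FUS1, AFR1 and AGA1, and the Poisson interval of each was apart from that of the next. In cdc55Δ MFA1, at 163 RPKM, stood behind BAR1 at 244 RPKM and STE6 at 179 RPKM. The separate intervals of STE6 and MFA1 overlapped there, but the interval of their ratio excluded 1. Per length MFA1 stood at 0.909 times STE6 in cdc55Δ (0.833 to 0.989) and at 1.91 times STE6 in WT (1.81 to 2.01). MFA1 went from rank 287 among mRNAs by RPKM in WT to rank 702 in cdc55Δ, and AFR1 from rank 5205 to rank 4325. The other members kept their order. A very short gene offers few positions to a read, which RPKM ignores, and the part of this in the levels of MFA1 and MFA2 against longer genes was not tested. The coding lengths used for MFA1 and MFA2 also leave out the untranslated ends of their transcripts, and the part of this was not tested either.

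**Figure D4:**
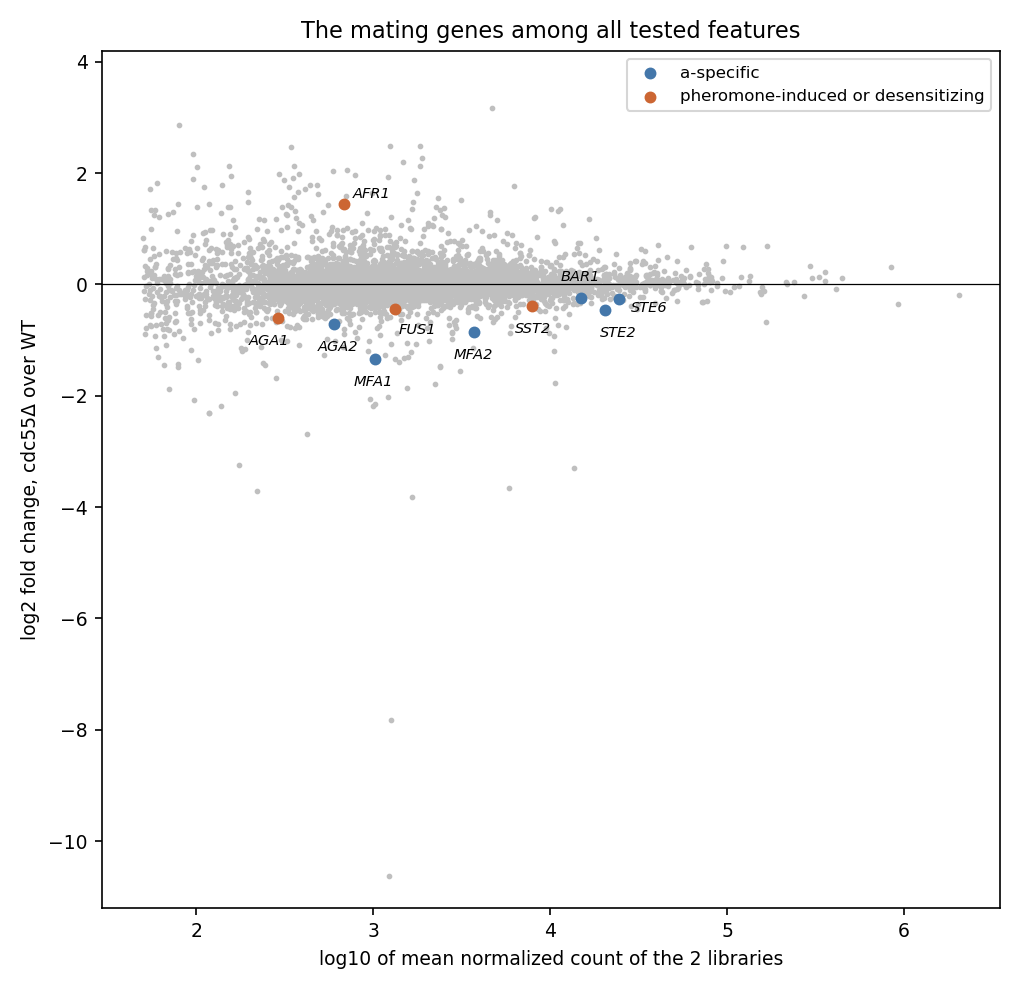
Log2 fold change of cdc55Δ over WT (y axis) against the log10 mean normalized count of the 2 libraries (x axis) for 5705 tested features in grey, with the members coloured by group. STE2, STE6 and BAR1 have the highest mean normalized counts of the members and lie at -0.46, -0.27 and -0.24, and MFA1 and AFR1 lie on opposite sides of the bulk at 1019 and 685 mean normalized counts, with CDC55 at the bottom of the plot.

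Other targets of the pheromone pathway were examined as a list of 18 genes, of which 17 passed the count minimum. This list and those below were chosen with earlier results of these data known, so the shares beside their counts are description only. Their median was -0.43 and 13 were lower (49.6% of all tested features). Of the 17, 5 were at least 1.5-fold lower (2.96% of tested features) and 1 at least 1.5-fold higher (5.17%). Those at least 2-fold lower (1.03% of tested features) were FIG1, PRM6, PRM2 and PRM4. FIG1, a membrane protein needed for calcium entry during mating, had 156 counts in WT against 54 in cdc55Δ, for a log2 fold change of -1.35 (-1.84 to -0.91). PRM6, a potassium transporter gene induced by pheromone, had 92 and 33 counts, a log2 fold change of -1.30 (-1.93 to -0.72). PRM2 had 138 and 54 counts, -1.18 on the log2 scale (-1.67 to -0.72), and PRM4 had 546 and 229 counts, -1.08 (-1.31 to -0.86). PRM1, which takes part in the fusion of the mating cells' membranes, had 834 and 468 counts, -0.66 (-0.83 to -0.50). These are low-count genes next to STE2 or STE6, and their intervals are wide.

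Against these, PRM10, a predicted membrane protein, had 564 counts in WT against 2298 in cdc55Δ, for a log2 fold change of 2.19 (2.06 to 2.33), the highest of the list. It overlaps its neighbour YJL107C by a few bases on the same strand, so reads at that border can belong to either gene. No match to TGAAACA was needed for membership of this list, and 11 of its 18 genes hold one in the 500 bases upstream. Over the 6000 genes searched the share was 12%. A match was also found for 8 of the 18 signalling genes and 3 of the 6 a-factor maturation genes described below. ASG7, the a-specific gene of the list, which inhibits signalling after mating, had 293 counts in WT against 194 in cdc55Δ, for a log2 fold change of -0.43 (-0.70 to -0.16). Its value lies within the range of the 6 a-specific members.

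Genes for the proteins that carry the signal were examined as a further list. Of 18 genes from the G protein to Ste12p, none was 1.5-fold apart (2.96% of tested features were that much lower and 5.17% higher). The median was -0.04 and the range ran from -0.33 to 0.21. The lowest was FAR1, an inhibitor of the cyclin-dependent kinase that pheromone also induces, with 11047 counts in WT and 7797 in cdc55Δ (-0.33, -0.38 to -0.29). The highest was STE50, an adaptor of the kinase Ste11p, with 558 and 573 counts (0.21, 0.04 to 0.38). STE12, whose product drives the pheromone targets, had 3194 and 2592 counts, a log2 fold change of -0.13 (-0.21 to -0.06), and FUS3, the MAP kinase of mating, had 2248 and 1647 counts, -0.28 (-0.37 to -0.19).

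The enzymes that mature a-factor stood closer to WT than its precursor genes. Of 6 genes none was 1.5-fold apart (2.96% of tested features were that much lower and 5.17% higher), and the median was -0.17. RAM2, a subunit of the farnesyltransferase, was the highest, with 1858 counts in WT and 1715 in cdc55Δ (0.05, -0.04 to 0.15). STE14, the methyltransferase that caps the lipidated cysteine, was the lowest, with 1347 and 966 counts (-0.31, -0.43 to -0.19). AXL1, the protease that makes the last cut and is itself limited to haploids, had 6485 and 4717 counts (-0.29, -0.35 to -0.24). MCM1, the activator of the a-specific genes, had 2041 and 1520 counts, a log2 fold change of -0.26 (-0.35 to -0.16). It was the lowest of 5 genes for Mcm1p and the Sir proteins that silence the spare cassettes, and SIR3 the highest, with 1841 and 1956 counts (0.26, 0.16 to 0.35). The median of these 5 was -0.05.

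**Figure D5:**
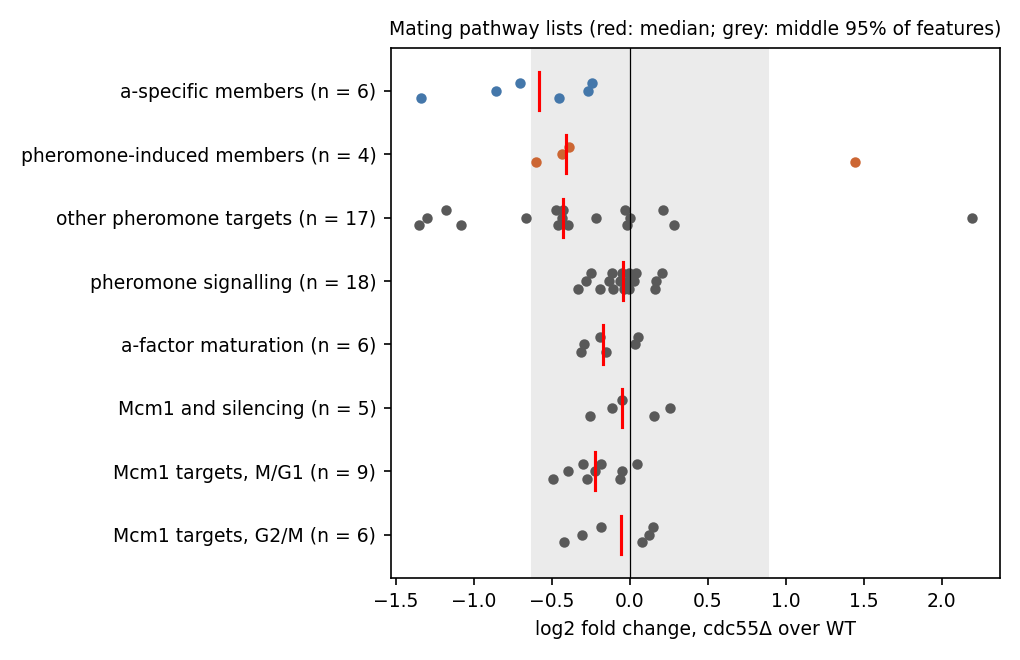
Log2 fold change of cdc55Δ over WT of every gene above the count minimum in each list, 1 point per gene, with the list's median in red and the middle 95% of tested features in grey. The a-specific members and both groups of pheromone targets have medians of -0.58, -0.41 and -0.43, and the signalling genes one of -0.04, while AFR1 and PRM10 stand alone on the right.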

How the data were processed

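RNA was extracted from 1 culture per strain, depleted of rRNA, made into directional libraries and sequenced from both ends. Per the study's methods and the submitters' processing notes, reads passed through Cutadapt, HISAT2 (S288C reference) and featureCounts, and the authors deposited raw counts per transcript as whole numbers. The build version, strand setting and handling of reads with several sites are not given in the sources used here, so antisense reads cannot be told apart from a gene's own. The deposited RPKM values equal each count scaled by the listed length and by the sum of all counts and were used as levels. The deposited TPM values were not used. The study's own test of differential expression was not repeated, since 1 library per strain leaves no replicate error, and no p-value is given.

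Scaling was by TMM (edgeR 4.0.16 under R 4.3.3), 0.5 was added to normalized counts, and intervals were computed in SciPy 1.17.1 (Python 3.11.15). Features needed a mean of 50 normalized counts to be tested. Fold thresholds were 2 and 1.5. Intervals cover counting error only and take each read as independent. PCR copies are not independent molecules, so the intervals can be too narrow. The computation of fold changes and intervals was checked on a simulated table of Poisson counts. That table holds no PCR copies and no spread between cultures, so it cannot show how the intervals behave in real libraries. All 87 list genes were matched by accession to R64, and 86 have its length (HMRA1 has an intron). Named beyond the members were the genes of the fixed lists at least 1.5-fold apart and the highest and lowest of each list. STE12, FUS3, AXL1 and ASG7 were added with their values known. The members and lists were chosen with earlier results of these data known. Alternatives were other scalings (DESeq2 1.42.0 size factors, library size, upper quartile, iterated DEGES, ACT1, mRNA only), prior counts, count minimums and removal of the trend with length (lowess, statsmodels 0.14.6, span 0.3).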

Additional observations from a re-analysis of the deposited data

How the results depend on the processing

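Across 9 alternative scalings, prior counts and the length correction no member changed sign, and 85 of 90 member values stayed within the counting interval of the reported value. The 5 others were MFA2 with the length trend removed (-0.75), STE2, STE6 and BAR1 under upper-quartile scaling (-0.50, -0.31 and -0.28) and STE6 under library size (-0.29). Scaling shifted all log2 fold changes by between -0.04 and 0.00. The a-specific median ran from -0.62 to -0.58 and the pheromone-induced one from -0.45 to -0.41. The numbers of members past 2-fold and 1.5-fold were the same under all 12 alternatives. Over all features, dropping the count minimum gave 166 at least 2-fold higher, 163 at least 2-fold lower and 366 at least 1.5-fold lower, and a minimum of 10 gave 94 and 262 lower at those folds, in place of 109, 59 and 169 (more low-count features are then tested). No paired analysis was possible because each strain has 1 library. Depth limits the low genes most: AGA1 rests on 371 and 217 counts. The spread between cultures was not measured.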

Other observations

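Mcm1p also drives genes outside mating, and those were set beside the a-specific genes by lists. Of 9 genes expressed at the M/G1 transition, none was 1.5-fold apart (2.96% of tested features were that much lower and 5.17% higher). Their median was -0.22, and 8 were lower (49.6% of tested features). The lowest was MCM7, a subunit of the replicative helicase, with 4268 counts in WT against 2694 in cdc55Δ, for a log2 fold change of -0.50 (-0.57 to -0.42), and the highest was SWI4, a transcription factor of late G1, with 1855 and 1706 counts (0.05, -0.05 to 0.14). Of 6 genes expressed at the G2/M transition, 3 were lower (49.6% of tested features), with a median of -0.05. CLB2, the main mitotic cyclin, was the lowest with 4589 and 3054 counts (-0.42, -0.49 to -0.35), and SWI5, a factor for genes of early G1, the highest with 1416 and 1397 counts (0.15, 0.04 to 0.26).

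The few α-specific transcripts were low in both libraries. SAG1, the α-agglutinin gene, stood at 4.44 RPKM in WT and 3.52 in cdc55Δ, and STE3, the a-factor receptor gene, at 1.75 and 1.46 RPKM. Both α-factor genes had at most 19 counts in either library. The 14 genes whose upstream window holds the operator letters also include GYP8, which shares its upstream region with STE2 and is transcribed away from it.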
